A study of Mus musculus with 15 samples.

Results

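The 10 genes described here encode acute phase proteins, plasma proteins whose level changes during inflammation and injury. They are the serum amyloid A genes Saa1, Saa2 and Saa3, the orosomucoid genes Orm1, Orm2 and Orm3, haptoglobin (Hp), serum amyloid P component (Apcs), C-reactive protein (Crp) and lipocalin 2 (Lcn2). They were taken by name, with no measured value in the rule, from a table of 37991 gene identifiers, and all 10 passed the low-count filter that left 14258 genes for testing. Expression was measured by poly(A) RNA sequencing of whole liver from female C57BL/6 mice, with 1 animal per library and 5 animals per group. Young WT mice were 90 days old and old WT mice were 600 days old, both with intact Rps6kb1, the gene of ribosomal S6 kinase 1 (S6K1). Old KO mice were 600 days old and carried a germline S6K1 knockout, so that the kinase was missing from all cell types throughout life. No young KO library was analysed here, and the genotypes were therefore compared at 600 days alone. In whole tissue, fewer cells of a type and less RNA per cell cannot be told apart.

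Libraries of young WT mice held between 21801754 and 38065359 counts, those of old WT mice between 27063911 and 31990482, and those of old KO mice between 21984658 and 27923739. Levels are given as CPM (counts scaled to library size) after scaling by the trimmed mean of M-values (TMM). The targeted gene was lower in every old KO library, with 15.2 to 20.8 CPM against 33.3 to 45.4 CPM over the 10 WT libraries (log2 difference from old WT -1.17, SE 0.0979, edgeR adjusted p 8.54e-06). The 6 hepatocyte markers examined (Alb, Ttr, Cps1, Serpina1a, Hnf4a and Ass1) were present in all libraries. One library, old WT replicate 10 (old WT 10), stood apart for the genes described here, and the results that rest on it are given with and without it.

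The acute phase response is driven in hepatocytes mainly by the cytokines interleukin 6 and interleukin 1. Interleukin 6 acts through the transcription factor STAT3, interleukin 1 and tumour necrosis factor act through NF-kB, and C/EBP factors bind many of the target promoters. In mice, serum amyloid A and serum amyloid P component are the strongly inducible members, whereas C-reactive protein, the main responder in humans, changes little. Saa1 and Saa2 are apolipoproteins of high-density lipoprotein, and Saa3 is made by macrophages and fat as well as by liver. Orosomucoids carry drugs and lipids in plasma, haptoglobin binds free haemoglobin, the pentraxins Apcs and Crp bind microbial surfaces and nuclear debris, and lipocalin 2 binds the iron carriers of bacteria.

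Most of the genes lie in small clusters of copies, all given here on the NCBIM37 build. On chromosome 7, Saa3 (chr7:53967368-53971046) and Saa1 (chr7:53995871-53998350) are on the minus strand and Saa2 (chr7:54007203-54009684) is on the plus strand. On chromosome 4, Orm1 (chr4:63005594-63009197), Orm3 (chr4:63017196-63020545) and Orm2 (chr4:63023483-63026912) follow each other on the plus strand. The pentraxin genes Crp (chr1:174628187-174630097, plus strand) and Apcs (chr1:174824093-174825185, minus strand) are both on chromosome 1. Hp (chr8:112099030-112103072) and Lcn2 (chr2:32240153-32243317) stand alone on the minus strand. All 10 are annotated as protein-coding, and none overlaps another annotated gene.

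The copies share sequence, which bears on how reads can be assigned to them. The longest protein-coding transcripts of Saa1 and Saa2 are 94.4% identical, those of Orm1 and Orm2 91.0%, those of Orm2 and Orm3 88.5% and those of Saa1 and Saa3 69.7%. Of all 50-base windows of the Saa1 transcript, the read length used, 10.8% occur unchanged in another gene's transcript, against 9.09% for Saa2, 1.87% for Saa3, 20.4% for Orm1, 21.8% for Orm2 and 3.59% for Orm3. For Hp, Apcs and Lcn2 the share was 0%, and for Crp it was 0.546%. How the authors' counting treated such reads is not given in the sources used here, so the split between Saa1 and Saa2 and among the Orm genes is uncertain, most of all where a scarce copy sits beside an abundant one.

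The promoters of neighbouring copies are shown because both pairs have closely similar upstream sequence, while Saa1 and Saa2 rose and fell together between animals and Orm2 and Orm3 were not shown to. RefSeq promoter sequence was found for 8 of the 10 genes, not for Orm1 and Hp. Over the 250 bases before the start, Saa1 and Saa2 are 95.6% identical over the aligned bases, Orm2 and Orm3 89.0%, and Saa1 and Saa3 59.4%. The last 150 bases before the start are printed 5′ to 3′ on the strand of the gene, with positions on GRCm38.p6. Capitals mark matches to the C/EBP motif TTNNGNAA, searched on both strands.
Saa1 (chr7:46742981-46743130, minus strand): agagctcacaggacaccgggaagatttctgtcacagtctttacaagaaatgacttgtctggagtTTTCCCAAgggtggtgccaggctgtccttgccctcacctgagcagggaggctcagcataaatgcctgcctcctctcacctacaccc
Saa2 (chr7:46751683-46751832, plus strand): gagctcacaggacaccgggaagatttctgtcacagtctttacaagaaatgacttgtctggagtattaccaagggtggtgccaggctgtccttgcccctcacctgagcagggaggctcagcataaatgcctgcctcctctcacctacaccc
Orm2 (chr4:63362299-63362448, plus strand): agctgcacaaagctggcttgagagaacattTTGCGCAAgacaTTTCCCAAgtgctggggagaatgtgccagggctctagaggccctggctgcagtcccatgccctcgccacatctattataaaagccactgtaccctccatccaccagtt
Orm3 (chr4:63356008-63356157, plus strand): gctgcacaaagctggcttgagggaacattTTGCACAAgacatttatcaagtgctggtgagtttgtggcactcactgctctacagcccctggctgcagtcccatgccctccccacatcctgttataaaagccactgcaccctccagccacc

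In these stretches Saa1 has a C/EBP match that Saa2 lacks, and Orm2 has a further match that Orm3 lacks. Over 250 bases the motif occurred in 7 of the 8 promoters, all but Apcs, and in 36.9% of 27025 mouse promoters of the same length. The STAT motif TTCNNNGAA was found in Apcs alone (7.18% of all promoters), as was CTGGGAA, the core of the type 2 acute phase element that STAT3 binds (9.08% of all promoters), and the NF-kB consensus was found in none of the 8 (3.75% of all promoters). All motifs were searched on both strands. A match describes letters in the window and says nothing about binding in these livers.

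The genes spanned a wide range of levels, which were compared between genes as RPKM, which divides CPM by the length of the transcript. In young WT, Hp had 1939 ± 523.4 RPKM (SD, n = 5), Orm1 396.3 ± 31.2, Crp 210.4 ± 30.7 and Apcs 72.2 ± 12.8 RPKM. The remaining 6 lay lower, from Saa1 with 31.4 ± 19.7 RPKM through Lcn2 (16.8 ± 5.92), Saa2 (12.7 ± 7.14), Orm2 (9.23 ± 2.93) and Orm3 (7.17 ± 1.82) to Saa3 with 4.53 ± 1.51 RPKM. Hp, Orm1 and Crp kept this order in all 3 groups with no overlap between Hp and Orm1 or between Orm1 and Crp. From Saa1 down, each gene's range in young WT and in old KO overlapped that of the next lower gene, and these neighbours cannot be ordered beyond their spread. In old WT, mean RPKM of Saa1 (116.2 ± 132.8) stood above that of Apcs (96.7 ± 26.0), with overlapping ranges. Orm3 (10.06 ± 7.40) was the lowest there, below Saa3 (13.0 ± 9.80), also with overlapping ranges. By mean RPKM over all 15 libraries Hp was the most abundant and Saa3 the scarcest. They had 40814 to 134773 and 44 to 438 counts per library, respectively.

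**Figure D1:**
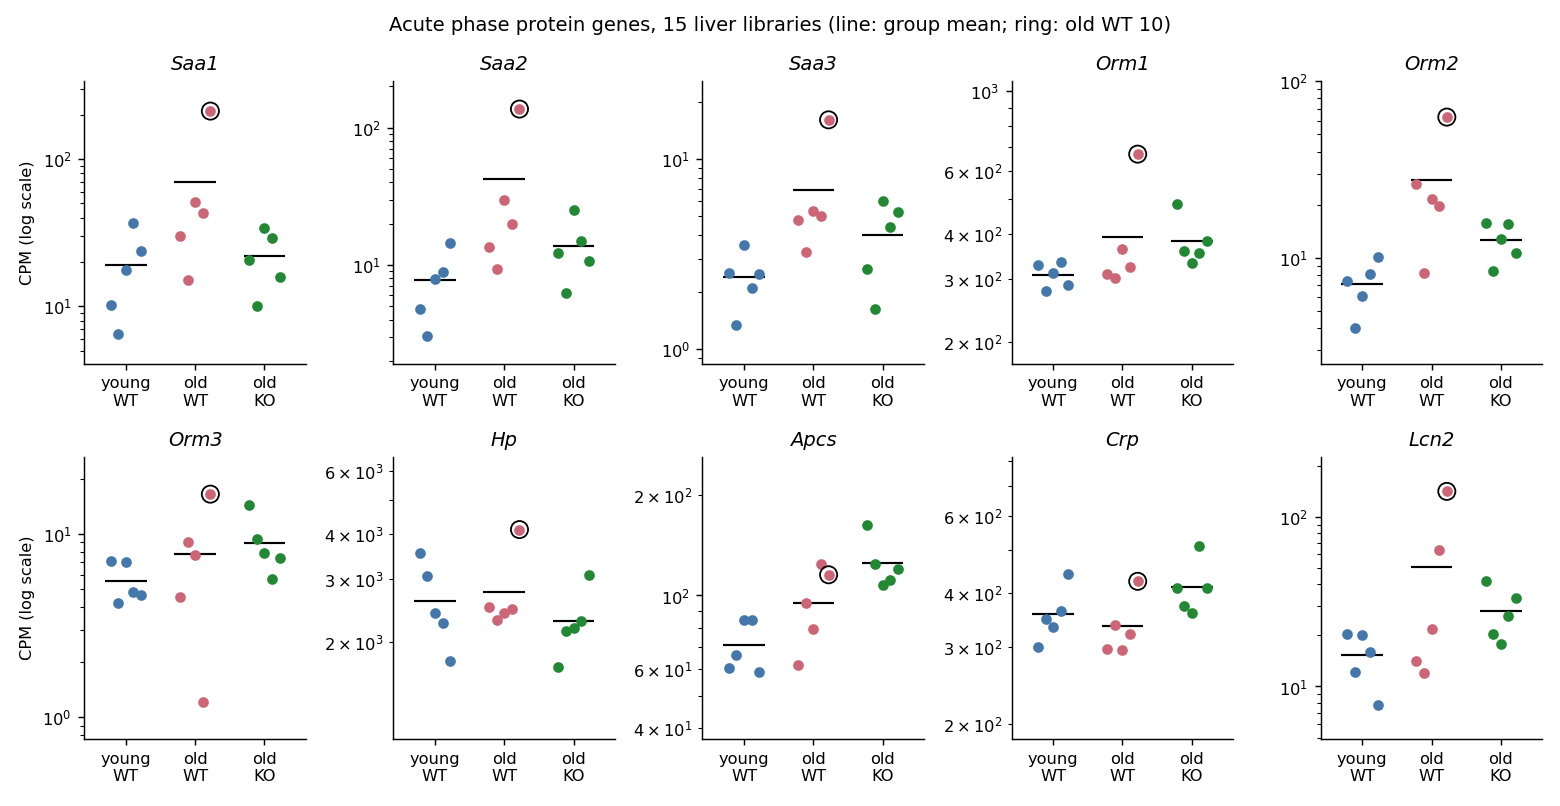
CPM of the 10 acute phase protein genes in each of the 15 libraries, on a log axis that differs between panels, with 1 point per library, a line at each group mean and a ring around old WT 10. The ringed library is the highest of the 15 in 8 panels, and only Apcs in old KO lies wholly above young WT.

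The first comparison, old WT against young WT, asked how these genes changed with age. Of the 10 genes 5 were higher in old WT at an adjusted p under 0.05 (Saa1, Saa2, Saa3, Orm2 and Lcn2) and none was lower. Over all genes tested, 18.8% changed in this comparison, 9.92% upward and 8.91% downward. The median log2 fold change was 1.00 over the 10 genes against 0.01 over all genes tested. For none of the 10 did the CPM ranges of the groups separate fully, whereas 11.4% of all genes tested had groups that did not overlap. The 5 calls rested in part on old WT 10: without it 1 of the 10 genes, Orm2, was still called, against 16.5% of the 14396 genes then tested.

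Orm2 had the change least dependent on single animals. Its level was 7.45, 4.03, 6.06, 8.14 and 10.1 CPM in young WT 1, 2, 3, 4 and 6, and 26.2, 8.25, 21.6, 19.7 and 62.7 CPM in old WT 1, 4, 5, 7 and 10. Of the old WT libraries 4 lay above all young WT libraries, and old WT 4 lay within their range. The group means were 7.15 ± 2.27 and 27.7 ± 20.7 CPM (SD, n = 5 each), and the fitted log2 fold change was 1.96 (SE 0.398, edgeR adjusted p 0.00408; exact permutation p 0.0159). Leaving out each of the 10 libraries in turn gave adjusted p between 0.00149 and 0.0123, and without old WT 10 the log2 fold change was 1.41 (edgeR adjusted p 0.00628).

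All 3 inducible amyloid A genes rose. Saa1 had 10.3, 6.53, 17.5, 36.7 and 23.8 CPM in young WT 1, 2, 3, 4 and 6 and 30.3, 15.1, 51.1, 43.1 and 212 CPM in old WT 1, 4, 5, 7 and 10. Saa2 had 4.74, 3.05, 7.89, 8.83 and 14.4 CPM in the same young libraries and 13.6, 9.42, 30.0, 20.01 and 137 CPM in the old ones. For both genes old WT 5, 7 and 10 lay above every young WT library and the other 2 old libraries lay within the young range. The log2 fold change was 1.89 for Saa1 (SE 0.611, edgeR adjusted p 0.0410; exact permutation p 0.0714) and 2.45 for Saa2 (SE 0.652, edgeR adjusted p 0.0172; exact permutation p 0.0238). Saa3, at a lower level, had 1.34 to 3.55 CPM in young WT and 4.81, 3.24, 5.34, 5.02 and 16.1 CPM in old WT 1, 4, 5, 7 and 10. Only old WT 4 fell within the young range of Saa3, and the log2 fold change was 1.52 (SE 0.423, edgeR adjusted p 0.0211; exact permutation p 0.0159). Without old WT 10 the log2 fold changes were 0.88 for Saa1, 1.25 for Saa2 and 0.94 for Saa3 (edgeR adjusted p 0.197, 0.0623 and 0.0617).

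Lcn2 had 20.5, 12.2, 20.1, 16.0 and 7.80 CPM in young WT and 14.2, 12.1, 21.7, 63.4 and 141 CPM in old WT 1, 4, 5, 7 and 10. Its rise came from old WT 7 and old WT 10, while old WT 1 and old WT 4 lay within the young range and old WT 5 just above it. The log2 fold change was 1.71 (SE 0.557, edgeR adjusted p 0.0420), the ratio of the group medians was 0.44 on the log2 scale, and the exact permutation p was 0.190. Without old WT 10 the fitted change was 0.85 (edgeR adjusted p 0.184).

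The 5 other genes did not pass the threshold. Apcs had 71.0 ± 12.6 CPM in young WT and 95.04 ± 25.6 CPM in old WT (SD, n = 5 each; log2 fold change 0.42, SE 0.176, edgeR adjusted p 0.104). Orm1 had 307 ± 24.2 and 393 ± 155 CPM (0.36, SE 0.186, edgeR adjusted p 0.195). Its young WT libraries lay between 278 and 333 CPM and old WT 1, 4, 5 and 7 between 300.4 and 364 CPM, against 668 CPM in old WT 10. Hp had 2604 ± 703 and 2758 ± 767 CPM (0.08, SE 0.206, edgeR adjusted p 0.813), and Crp had 357 ± 52.2 and 335 ± 52.8 CPM (-0.09, SE 0.127, edgeR adjusted p 0.648). The 95% intervals of the last pair, -0.35 to 0.52 for Hp and -0.36 to 0.18 for Crp, lay within 1 log2 unit of no change. Orm3 had 7.11, 4.18, 7.01, 4.79 and 4.61 CPM in young WT and 4.5, 9.03, 7.66, 1.21 and 16.5 CPM in old WT 1, 4, 5, 7 and 10. It was thus highest in old WT 10 and lowest of all 15 libraries in old WT 7, with 33 counts there, and its log2 fold change of 0.48 (95% interval -0.44 to 1.41, edgeR adjusted p 0.467) left a change of either sign possible. When old WT 10 was left out the age difference was 0.08 for Orm1, 0.02 for Orm3, -0.11 for Hp and -0.19 for Crp (edgeR adjusted p 0.657, 0.982, 0.728 and 0.293), so that Hp changed sign.

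**Figure D2:**
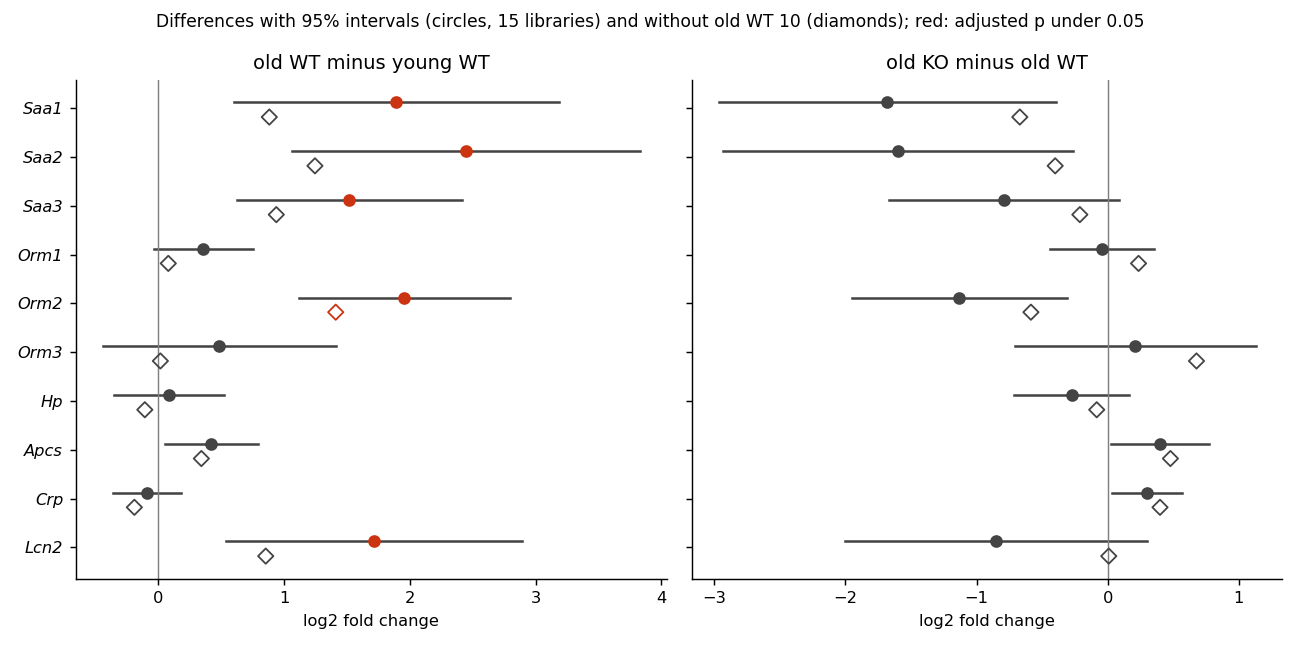
Log2 fold changes of old WT against young WT (left) and of old KO against old WT (right), with 95% intervals from all 15 libraries (circles) and the value without old WT 10 (diamonds, drawn without interval), red where the edgeR adjusted p was under 0.05. With age 5 circles and 1 diamond are red. Between genotypes none is, and the diamonds of the Saa genes, Orm2 and Lcn2 lie closer to 0 than the circles in both panels.

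Old WT 10 had the highest CPM of the 15 libraries for 8 of the 10 genes, all but Apcs (highest in old KO 1) and Crp (highest in old KO 5). It was the highest library for 5.04% of all genes tested. Relative to the mean of the other 4 old WT libraries its CPM was 7.51-fold for Saa2, 6.08-fold for Saa1, 5.07-fold for Lcn2, 3.50-fold for Saa3, 3.31-fold for Orm2, 2.94-fold for Orm3, 2.06-fold for Orm1, 1.71-fold for Hp, 1.36-fold for Crp and 1.28-fold for Apcs. In log2 CPM it exceeded the mean of those 4 by more than 1 for 7 of the 10 genes, which 1.12% of all genes tested did. The median excess was 1.83 over the 10 genes and -0.003 over all genes tested. The library stood apart for these genes, and the median gene was at the level of the other old WT libraries.

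**Figure D3:**
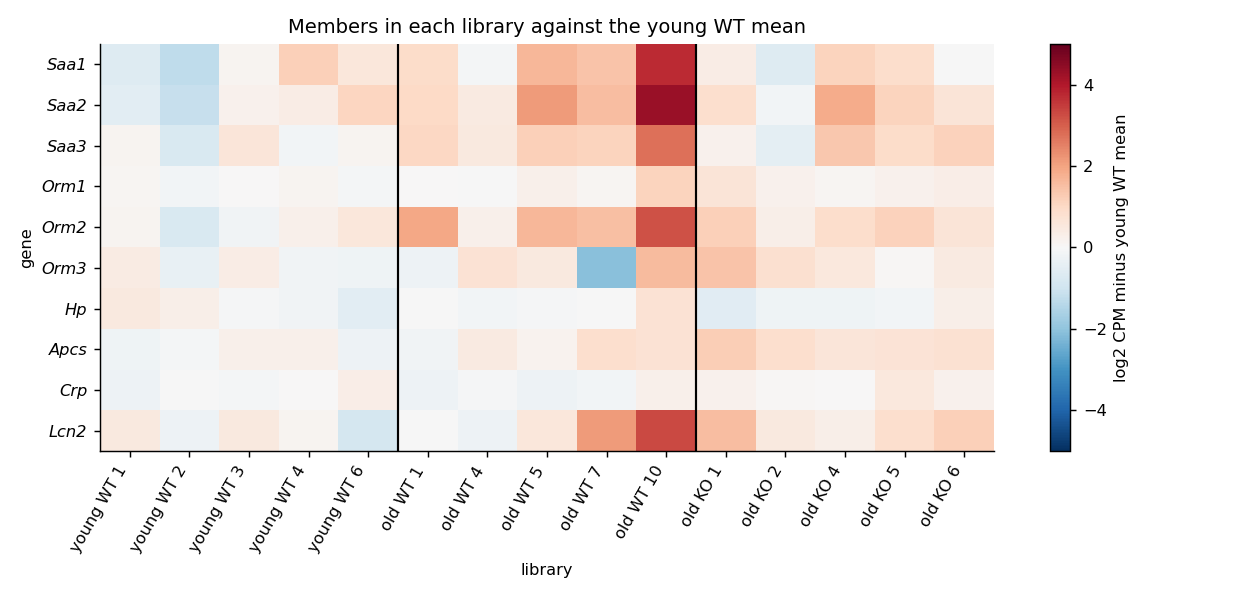
Log2 CPM of each of the 10 genes in each of the 15 libraries minus the young WT mean of that gene, with red above and blue below that mean. The column of old WT 10 is red in every row, and the row of Orm3 has its lowest value in old WT 7.

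Leaving out single libraries showed which calls of the age comparison held. Over the 10 leave-out fits Orm2 was called in 10, Saa2 in 9, Saa3 in 8, Saa1 in 5 and Lcn2 in 3. The 1 fit in which Saa2 lost its call was that without old WT 10, and Saa3 lost its call in that fit and without young WT 2 (edgeR adjusted p 0.0545). Saa1 lost its call without old WT 10, old WT 5, young WT 1, young WT 2 or young WT 3 (edgeR adjusted p 0.0236 to 0.197 over the 10 fits). Lcn2 lost its call without old WT 10, without old WT 7 and without any of the young WT libraries (edgeR adjusted p 0.0222 to 0.184). Apcs gained a call without old WT 1 (edgeR adjusted p 0.0366). With Saa1 and Saa2 counts summed into 1 feature the log2 fold change was 2.07 (edgeR adjusted p 0.0297), and with the 3 Orm genes summed, where Orm1 gives most counts, it was 0.42 (edgeR adjusted p 0.143).

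**Figure D4:**
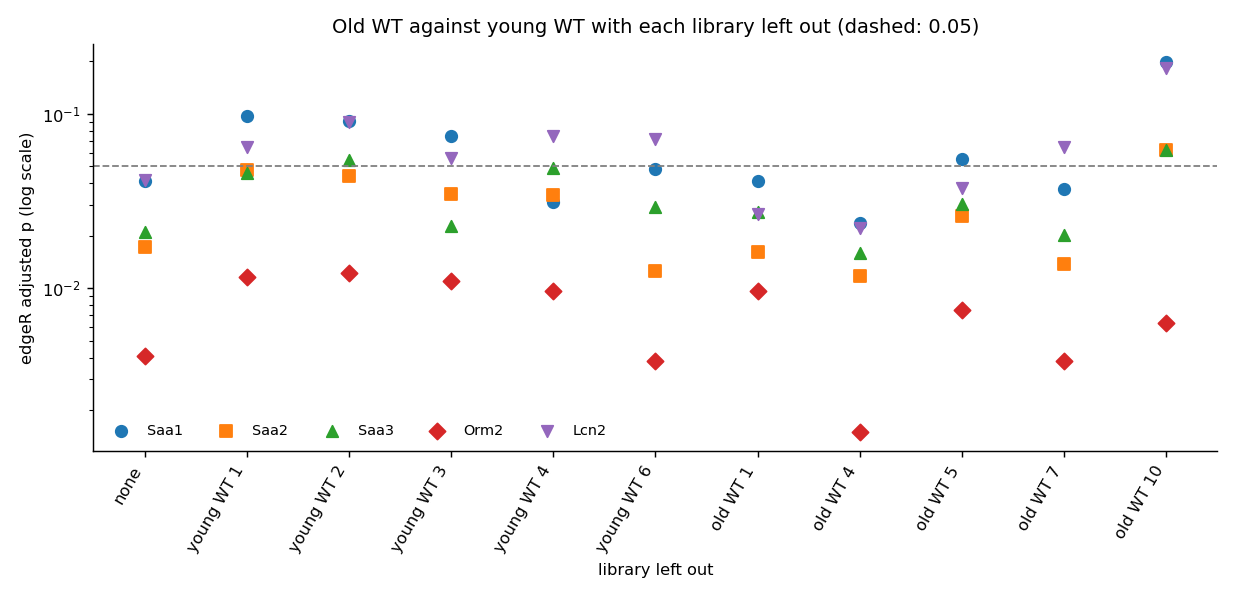
EdgeR adjusted p (log axis) of the 5 called genes in old WT against young WT with all libraries and with each of the 10 libraries left out, and a dashed line at 0.05. Orm2 stays below the line in all 11 fits, and without old WT 10 the other 4 genes lie above it.

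The second comparison, old KO against old WT, asked how loss of S6K1 changed these genes in old liver. None of the 10 genes passed the threshold in edgeR, where 0.533% of all genes tested did, 0.112% upward and 0.421% downward. For no member did the 2 groups separate, against 3.2% of all genes tested. At an unadjusted p under 0.05, 5 of the 10 differed against 11.6% of all genes tested. Of these Saa1, Saa2 and Orm2 were lower in old KO, and Apcs and Crp were higher. No member was called by DESeq2 or limma voom either. The median log2 fold change was -0.53 over the 10 genes and 0.0008 over all genes tested. This median and the unadjusted count include old WT 10. Without it the log2 fold changes had both signs, from -0.67 (Saa1) to 0.68 (Orm3), and again none was called.

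Saa1 had 20.6, 10.1, 34.2, 29.1 and 15.8 CPM in old KO 1, 2, 4, 5 and 6, a mean of 21.95 ± 9.77 CPM against 70.3 ± 80.4 CPM in old WT (SD, n = 5 each). All but old KO 2 lay within the old WT range. The log2 fold change was -1.68 (SE 0.608, 95% interval -2.97 to -0.39, edgeR adjusted p 0.264; exact permutation p 0.119), and -0.67 without old WT 10. Saa2 had 12.2, 6.21, 25.1, 14.97 and 10.8 CPM in old KO (log2 fold change -1.60, SE 0.630, edgeR adjusted p 0.317), and -0.40 without old WT 10. Orm2 had 15.8, 8.39, 12.8, 15.5 and 10.7 CPM in old KO, all within the old WT range (-1.13, SE 0.387, edgeR adjusted p 0.233), and -0.59 without old WT 10. Saa3 differed by -0.79 (SE 0.414, edgeR adjusted p 0.484), and by -0.21 without old WT 10. Lcn2 had 42.1, 20.5, 17.9, 26.0 and 33.2 CPM in old KO, and its difference of -0.85 (SE 0.544, edgeR adjusted p 0.582) was 0.01 without old WT 10. For these 5 genes the difference between genotypes therefore changed by more than 1.5 times when 1 library was left out.

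The pentraxins had the opposite sign. Apcs had 163, 124, 108, 111 and 120 CPM in old KO 1, 2, 4, 5 and 6 and 61.6, 95.1, 79.1, 124 and 115 CPM in old WT 1, 4, 5, 7 and 10. The 2 groups overlapped in the range of old WT 7 and 10, and the log2 fold change was 0.40 (SE 0.175, 95% interval 0.03 to 0.77, edgeR adjusted p 0.388; exact permutation p 0.0873). Crp had 409, 372, 360, 511 and 410 CPM in old KO and 297, 337, 295, 322 and 424 CPM in old WT (0.30, SE 0.127, 95% interval 0.03 to 0.57, edgeR adjusted p 0.360; exact permutation p 0.0556). Without old WT 10 the values were 0.48 for Apcs and 0.40 for Crp. Orm1 (-0.04, SE 0.186, edgeR adjusted p 0.965), Orm3 (0.21, SE 0.434, edgeR adjusted p 0.913) and Hp (-0.27, SE 0.206, edgeR adjusted p 0.664) had smaller or less certain differences. These were 0.23, 0.68 and -0.08 without old WT 10, so that Orm1 changed sign (edgeR adjusted p 0.438, 0.560 and 0.914). Hp was 1703 to 3073 CPM in old KO, and 4 of the 5 old KO libraries lay below every old WT library.

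The third comparison, old KO with young WT, differs in both age and genotype. Apcs, at 125 ± 22.3 CPM in old KO against 71.0 ± 12.6 CPM in young WT (SD, n = 5 each), was the only member called in the fit of all libraries. All 5 old KO libraries (108 to 163 CPM) lay above all 5 young WT libraries (59.1 to 84.6 CPM), and the fitted difference was 0.82 on the log2 scale (SE 0.176, edgeR adjusted p 0.00409; exact permutation p 0.00794, the smallest that 5 against 5 allows). Over all genes tested 23.3% changed in this comparison, 36.8% had an unadjusted p under 0.05 and 13.9% had groups that did not overlap. The median log2 fold change was 0.71 over the 10 genes against -0.005 over all genes tested. At an unadjusted edgeR p under 0.05, 1 of the 10 differed (Apcs), against 36.8% of all genes tested. The exact permutation p, not adjusted, was under 0.05 for 5 of the 10, a share not computed over all genes. Besides Apcs these were Orm1 (0.0159), Orm2 (0.0159), Lcn2 (0.0317) and Orm3 (0.0397). Apcs was called in all 22 alternatives run on this comparison (edgeR, DESeq2 or limma voom adjusted p 0.000145 to 0.0133). Orm2 (0.83, SE 0.395, edgeR adjusted p 0.142) and Lcn2 (0.86, edgeR adjusted p 0.272) passed when only the 10 libraries of the comparison were fitted (edgeR adjusted p 0.0272 and 0.0442), and Orm1 and Orm2 passed without old WT 10, which enters the fit through the shared spread (edgeR adjusted p 0.0401 and 0.0487). Saa1, with 0.21 (95% interval -1.06 to 1.49, edgeR adjusted p 0.827), Saa2 with 0.85 (edgeR adjusted p 0.360) and Saa3 with 0.72 (edgeR adjusted p 0.234) did not pass. All 3 comparisons share groups, so their values are given side by side and were not compared with each other.

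The genes differed in how much animals of the same group varied. Within groups the pooled SD of log2 CPM was 1.08 for Saa2, 1.07 for Saa1, 0.98 for Lcn2, 0.88 for Orm3, 0.72 for Saa3 and 0.70 for Orm2, against a median of 0.23 over all genes tested. These 6 values lay between the 95.4 and 99.3 percentiles of all genes tested. Hp (0.35), Apcs (0.31), Orm1 (0.31) and Crp (0.20) lay between the 44.0 and 70.9 percentiles. Without old WT 10 the SD of Saa1 was still 0.83 (97.7 percentile) and that of Lcn2 0.73 (95.9 percentile), while that of Orm1 fell to 0.16 (28.2 percentile). Young WT alone spanned 5.62-fold for Saa1, from 6.53 CPM in young WT 2 to 36.7 CPM in young WT 4, and 4.70-fold for Saa2, but 1.2-fold for Orm1.

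Whether the genes rose and fell together between animals was examined after removing the group means (n = 15 libraries, permutation within groups, Benjamini-Hochberg over 45 pairs). Of the 45 pairs 44 had a positive Pearson r, and 6 had an adjusted permutation p under 0.05 for r. The count of positive signs rests in part on old WT 10. Without that library many pairs had a negative r, and values ran from -0.47 (Saa2 with Hp) to 0.91 (Saa1 with Saa2). Saa1 and Saa2 had r 0.95 (permutation p 6e-05, adjusted p 0.0027) and Spearman rho 0.98 (permutation p 1e-05, the smallest that the shuffles can give, adjusted p 0.00045), the only pair that passed by both measures. Their r was 0.88 without the 2 libraries farthest from the median of Saa1 (young WT 2 and old WT 10) and 0.91 without old WT 10 alone. Saa1 with Orm2 had r 0.87 (adjusted permutation p 0.0235), Saa2 with Orm2 0.85 (0.0235), Saa2 with Saa3 0.84 (0.0212), Orm1 with Lcn2 0.81 (0.0357) and Saa1 with Saa3 0.78 (0.0302). Their rho was 0.68 to 0.76, and without the 2 farthest libraries r was 0.68, 0.60, 0.62, 0.52 and 0.50, so these 5 relations rest in part on those libraries. Neighbours in the genome did not always pair: Orm2 and Orm3 had r 0.23 (permutation p 0.615) and rho 0.14 (permutation p 0.654), and r -0.23 without old WT 10.

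**Figure D5:**
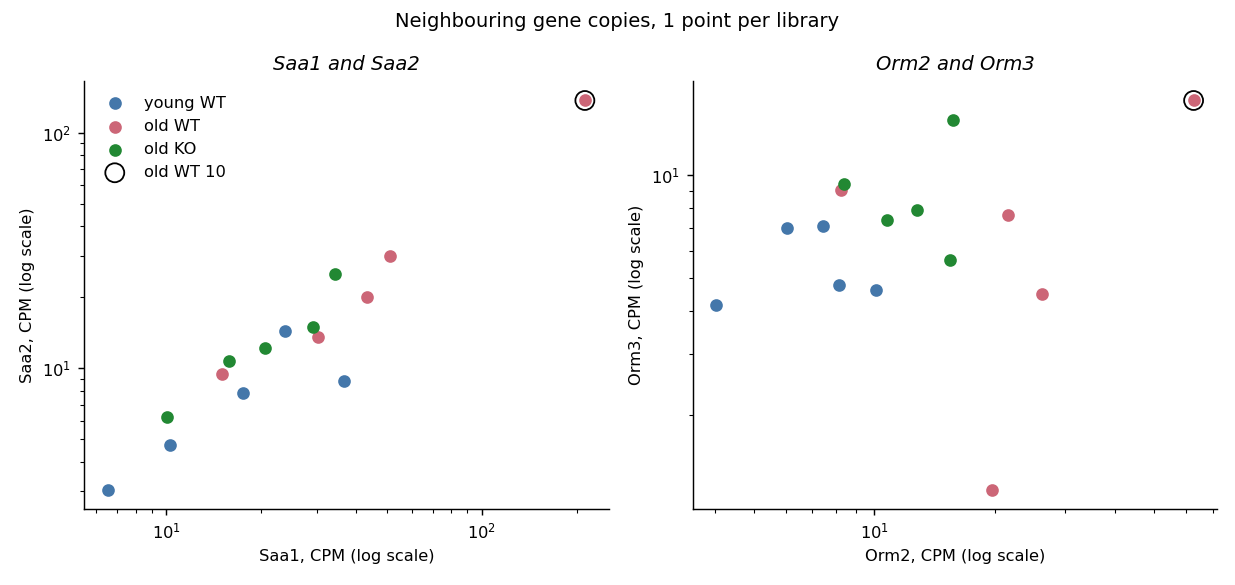
CPM of Saa2 against Saa1 (left) and of Orm3 against Orm2 (right), 1 point per library, both axes logarithmic, with a ring around old WT 10. The Saa points follow a common slope in all 3 groups, whereas Orm3 ranges from 1.21 to 16.5 CPM in old WT libraries with no common slope with Orm2.

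The ratio of copies per length was also taken in each library. Saa1 over Saa2 had a median of 2.19 in young WT, 1.72 in old WT and 1.64 in old KO, and the ranges of the groups overlapped (1.67 to 4.19, 1.56 to 2.25 and 1.37 to 1.96). Orm1 over Orm2 lay between 28.5 and 68.9 in young WT, between 10.6 and 36.4 in old WT, and between 22.9 and 42.6 in old KO. Orm2 over Orm3 was 0.863 to 2.18 in young WT and 0.890 to 2.73 in old KO but 0.911 to 16.3 in old WT. The highest ratio was in old WT 7, where Orm3 had 33 counts. The effect of reads shared between the copies depends on how they were counted, which is not given in the sources used here. The part of such reads in these ratios was not tested.

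For each gene the measured gene with the most similar pattern after removing group means was sought among 12115 genes averaging 1 CPM or more, using all 15 libraries. The Pearson r serves here as a measure of likeness only. It was Fgl1 for Saa1 (0.84), 2900053A13Rik for Saa2 (0.92) and Fam162a for Saa3 (0.92), with 2900053A13Rik also among the 3 most similar genes of Saa1 and Saa3. For the others it was Tank for Orm1 (0.85), Mrps6 for Orm2 (0.79), Dct for Orm3 (0.93), Timm23 for Hp (0.94), Eprs for Apcs (0.87), Dram1 for Crp (0.85) and Abce1 for Lcn2 (0.89). With the same partners but without old WT 10, r was 0.69 for Saa1, 0.66 for Orm1, 0.66 for Orm2 and 0.82 for Lcn2. It was then 0.89 for Saa2, 0.90 for Saa3, 0.91 for Orm3, 0.96 for Hp, 0.87 for Apcs and 0.91 for Crp.

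Other genes of the response were described from lists. Among 33 further positive acute phase genes 6 were higher and 3 lower in old WT than in young WT (median log2 fold change 0.12). Over all genes tested 9.92% were higher and 8.91% lower. Saa4, the constitutive amyloid A gene, rose from 106 ± 26.1 to 229 ± 46.4 CPM (SD, n = 5 each; log2 fold change 1.12, SE 0.177, edgeR adjusted p 0.000991). Unlike its inducible relatives, Saa4 was not raised further in old WT 10 (227 CPM), and its change was 1.12 without that library. Steap4, a metalloreductase, rose by 1.26 and Itih4, an inter-alpha-trypsin inhibitor heavy chain, by 0.91 (edgeR adjusted p 0.00266 and 0.000787). The serine protease inhibitor genes Serpina1e (-3.91, edgeR adjusted p 0.0350) and Serpina3k (-1.33, edgeR adjusted p 0.00809) fell, and both belong to families of near-identical copies. Serpina1e was not called in 6 of 10 leave-out fits (edgeR adjusted p 0.00338 to 0.0790). Of 12 negative acute phase genes, whose proteins fall during inflammation, 4 were higher and 2 lower, and Serpina6, the corticosteroid carrier, rose by 2.06 (edgeR adjusted p 0.000499). Without old WT 10 these counts were 5 and 2 of 33, and 3 and 2 of 12, with 16.5% of all genes then tested called.

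Counts of upstream genes called with age are given against the 18.8% of all genes tested. Among 10 cytokine genes 5 were tested and 1 was higher, Tnf, from 0.202 to 0.52 CPM (log2 fold change 1.43, edgeR adjusted p 0.0350), which rests on 3 to 18 counts per library and was not called in 6 of 10 leave-out fits (edgeR adjusted p up to 0.0950). Il6 had 0 to 5 counts per library and was not tested. Il1b was 3.74 CPM in young WT, 7.60 in old WT and 2.54 in old KO (1.02 with age, edgeR adjusted p 0.113; -1.56 between genotypes, edgeR adjusted p 0.155). Without old KO 2 the difference between genotypes was -2.42 and was called (edgeR adjusted p 0.00493). That was the 1 call in 10 leave-out fits, where the edgeR adjusted p reached 0.309. Of 26 tested receptor and signalling genes 4 were higher and 1 lower. Stat3 was higher by 0.35 (edgeR adjusted p 0.0336), a call lost in 6 of 10 leave-out fits (edgeR adjusted p 0.0348 to 0.0781), and Il1r1, the interleukin 1 receptor, fell by 1.23 on the log2 scale (edgeR adjusted p 0.0135). Socs3 (0.10, edgeR adjusted p 0.796), the feedback inhibitor induced by STAT3, and Nfkbiz (0.30, edgeR adjusted p 0.269), an NF-kB cofactor, did not pass. Of 10 transcription factors 2 were higher, and Cebpb (-0.49, edgeR adjusted p 0.319) and Cebpd (-0.54, edgeR adjusted p 0.313) were not among them. Of 18 receptors and partners of the proteins 1 was higher and 1 lower. Tlr2 was higher by 0.74 (edgeR adjusted p 0.0134), called in all 10 leave-out fits. Cd163, the macrophage receptor for haptoglobin bound to haemoglobin, fell by 1.86 on the log2 scale (edgeR adjusted p 0.0336). That call was lost without old WT 10 and in 6 of 10 leave-out fits in all (edgeR adjusted p 0.00763 to 0.0702).

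Between genotypes 0.533% of all genes tested were called, 0.421% as lower in old KO. Of the 33 further positive genes 1 was lower in old KO, Cd14 (-1.04, edgeR adjusted p 0.0247), the co-receptor for lipopolysaccharide. None of the negative, cytokine, signalling or transcription factor genes passed in edgeR. At an unadjusted p under 0.05 there were 2 of 12, 2 of 5, 6 of 26 and 2 of 10, against 11.6% of all genes tested. DESeq2 called 2 of the 12 negative genes, both higher in old KO, and none of the other 3 lists, and limma voom called none. Of 18 receptors and partners of the proteins 5 were lower in old KO. These were C1qa (-0.91), C1qb (-1.02) and C1qc (-0.99), the subunits of the complement factor that pentraxins bind, Tlr2 (-1.01), a receptor at which amyloid A acts, and Hmox1 (-0.85), which breaks down haem (edgeR adjusted p 0.0459, 0.0223, 0.0290, 0.0295 and 0.0484). Over the 10 leave-out fits each of these 5 genes and Cd14 lost its call in at least 5. Without old WT 10 the count was 2 of 18, against 0.292% of all genes then tested. It was 9 with DESeq2 and 1 with limma voom. These genes are expressed by macrophages, and the 9 macrophage markers were lower in old KO as well, with 4 called (1 without old WT 10), a median log2 fold change of -1.19 (-1.21 without it) and summed levels of 115 to 163 CPM in old KO against 185 to 512 in old WT and 169 to 386 in young WT. The part of macrophage content in these differences was not tested.

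Cell type markers were also read in old WT 10. Its summed neutrophil markers were 11.2 CPM, within the old WT range of 5.64 to 20.8 CPM, and its macrophage markers were 331 CPM, the median of old WT. None of the 8 marker lists had its highest sum in old WT 10, whose rank among the 15 libraries ranged from 3 for neutrophils to 15 for endothelium. Its hepatocyte markers had the second lowest sum of the 15 libraries (81100 CPM, with a range of 68080 to 133300 over all libraries) and its endothelial markers the lowest (93.2 CPM). Lcn2 and Saa3 are also made outside hepatocytes, and the part of cell content in their levels was not tested. Among the 33 further positive acute phase genes old WT 10 was the highest library for 4, or 12.1%, namely C3, Cfb, Cp and Itih4. Among the 12 negative ones it was the lowest library for 3, or 25.0% (Ttr, Ahsg and Cyp7a1), and the highest for Serpina6. Over all genes tested it was the highest for 5.04% and the lowest for 6.26%. The genes named in these last sentences beside Serpina6 and Itih4 were picked after their values had been seen.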

How the data were processed

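The deposited table holds raw counts of reads per gene. According to the study's methods, the authors made stranded poly(A) libraries, sequenced single-end 50-base reads, demultiplexed them with CASAVA, mapped them to mm9 with TopHat (TopHat2 2.0.11 in the submitters' processing notes) and used HTSeq for counting. Each animal has 1 column in the table. Annotation and strand setting of the counting are not given in the sources used here.

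Groups and replicate numbers came from the sample titles. Symbols and positions came from GENCODE M1 on NCBIM37, the build of mm9. Scaling was by TMM (edgeR 4.0.16, R 4.3.3), filterByExpr (3 groups) removed genes with low counts, and the rest were tested with glmQLFit and glmQLFTest in 1 fit of all 15 libraries, with Benjamini-Hochberg adjustment over 14258 genes and a threshold of 0.05. Adjusted p-values come from this test unless another tool is named. DESeq2 1.42.0 and limma 3.58.1 (voom) were alternatives. The script was tested on simulated data. CPM used TMM-scaled library sizes, log2 CPM a prior count of 2, and RPKM the longest protein-coding transcript. Exact 2-sided permutation tests (252 assignments, smallest p 0.00794) used log2(CPM + 0.1). Within-group correlations used 100000 shuffles within groups.

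P-values measure the spread between animals. Counting error is small for these genes at the depths given, the fewest counts being 33. Same-numbered libraries of different groups did not deviate together, so there was no sign that the numbers pair the animals.

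The 10 genes were described whole. From the other lists the rule named 9 fixed genes and, for age and for genotype, up to 8 genes with the largest change among those called with a mean of at least 1 CPM. Members, lists and rules were chosen with earlier results of these data known. Alternatives covered scaling, test, filter, libraries in the fit, a replicate block, summed copies and leaving out each library.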

Additional observations from a re-analysis of the deposited data

Results flagged for a closer look

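In old WT, 2 of the 10 genes had a library that stood apart from the other 4 on the log2 CPM scale. For Hp the gap between old WT 10 (4123 CPM) and the next library (2494 CPM) was 0.858 of the group's whole range. For Orm1 the gap between old WT 10 (668 CPM) and the next library (364 CPM) was 0.761 of the range. The limit for 5 samples is 0.71. In all 30 groups (10 genes in 3 groups) were checked, and chance alone flags about 1 in 20. Both flags fall in the library that also had the highest levels of Saa1, Saa2, Saa3, Orm2, Orm3 and Lcn2. For Saa1, Saa2, Orm2, Orm3 and Lcn2 the other old WT libraries were themselves spread widely, while those of Saa3 lay closer together (3.24 to 5.34 CPM). None of these gaps reached the limit on this scale.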

How the results depend on the processing

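In old WT against young WT, 5 of 10 members were called, and this count was 3 with limma voom, 3 with robust quasi-likelihood and 3 with only the 10 libraries of the contrast, where Saa1 and Lcn2 were lost. It was 1 to 6 when each library was left out, with 6 without old WT 1, where Apcs was added, 3 without young WT 1 or young WT 3, 2 without young WT 2 and 1 without old WT 10. The count over the whole table was 2685, and 1748 to 3284 when each library was left out. In old KO against old WT no member was called under any alternative, while the count over the whole table, 76, was 305 with DESeq2, 23 with limma voom and 9 to 83 when each library was left out. In old KO against young WT, 1 member was called, and 3 with only the 10 libraries of the contrast, 3 without old WT 10 (an alternative chosen after seeing the data) and 1 to 3 when each library was left out.

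Same-numbered libraries of different groups were not correlated in their deviations (-0.15 to 0.08 over 9 pairs), and 0 of 12 libraries correlated best with its own number. With the replicate number as a block, 0 members and 899 genes were called with age, 6 genes between genotypes and 1 member in old KO against young WT. Lcn2 then had an age difference of -0.058 (edgeR adjusted p 0.934), the 1 called value of the 10 genes that changed sign. Replicate numbers 7 and 10 occur in old WT alone and 3 in young WT alone. With the block these libraries add nothing to the fitted group differences. For Lcn2 they include old WT 7 and old WT 10, with 63.4 and 141 CPM. Their part in these changes was not tested.

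Of 207 alternative values of the members with age, 25 kept their sign and lost a call, the Lcn2 value with the block lost both, and 1 gained a call, and of 217 for old KO against young WT 4 gained one. All 30 exact tests kept their side of the threshold with a pseudocount of 1. With all annotated exons as length, Lcn2 was lower per length by more than its SD in 2 groups. 5 animals per group, and the wide spread of Saa1, Saa2 and Lcn2 within groups, limit what could be called.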
